A study of Homo sapiens with 2 samples.

Results

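Respiratory complexes II to V pass electrons from succinate and ubiquinol to oxygen and use the resulting proton gradient to make ATP. Complex II is succinate dehydrogenase, which also belongs to the citric acid cycle. Complex III, the cytochrome bc1 complex, hands electrons to cytochrome c, complex IV reduces oxygen, and complex V is ATP synthase, with a catalytic F1 head, a central and a peripheral stalk and a ring of c subunits in the membrane. Heart muscle depends on this chain for most of its ATP. The genes described here are 41 nuclear genes for subunits of these complexes, for cytochrome c, encoded by CYCS, and for the ATPase inhibitor ATP5IF1. They were chosen by name, and every listed event whose gene identifier is that of a member was taken.

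The study set 2 forms of AC16, a human cardiac cell line, side by side. DCRT-KO cells lack the long non-coding RNA DCRT after a CRISPR-Cas9 knockout, and WT cells are the unedited line. No listed gene bears the symbol DCRT, so the knockout was not checked here. Full-length transcripts were read by PacBio Iso-Seq, according to the series' design text, whereas the extraction protocol given with the samples is one for Illumina. There was 1 library per genotype, and whether the DCRT-KO line came from 1 clone is not given in the sources used here. The tables list alternative splicing events in which 2 forms of a transcript segment occur, with the isoforms of the library and the annotated Ensembl transcripts that carry each form. They hold no read count and no inclusion level, so depth is unknown, and each number below counts listed events or isoforms. With 1 library per genotype no difference has a replicate check, no test was possible, and exact intervals cover counting error only. They are also too narrow, because events of a gene share isoforms.

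The lists held 42783 events in DCRT-KO against 35307 in WT, with 54197 library isoforms in DCRT-KO and 49374 in WT. Of 15 cardiomyocyte markers only MYL3 and NPPB were listed, with 0 events in DCRT-KO against 3 in WT, and TNNT2, MYH6, MYH7 and ACTN2 were at 0 in both. COX6A2 and COX7A1, the heart and muscle forms of complex IV subunits, were at 0 in both as well. Of 12 fibroblast and matrix markers 10 were listed, with 6 events in DCRT-KO against 590 in WT, 405 of these in COL1A1, and all 10 were higher in WT, while DCN and LUM were at 0 in both. Of 7 epithelial markers KRT8, KRT18 and LAMB3 were listed, with 79 events in DCRT-KO against 22 in WT, while EPCAM, CDH1, KRT19 and CLDN4 were at 0. These marker lists differed between the libraries together with the subunit genes described below, and their part in the results was not tested.

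Of the 41 genes, 31 were listed in at least 1 library, with 136 events in DCRT-KO against 81 in WT. The 10 genes not listed were UQCRFS1, UQCRB, UQCR11, CYC1, CYCS, COX6A1, COX7A2L, COX8A, ATP5F1D and ATP5F1E, and no event of another gene lay in the span of any of them. Over both libraries the most events fell in UQCRC1 with 26, SDHA and ATP5F1B with 21 each and the c-ring gene ATP5MC1 with 19. Most small subunits held few, and 18 listed members had at most 4 events over both libraries. Absence from the lists does not show that a gene was not expressed.

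The skipped exons and alternative sites on which the description turns are shown first, as they read in GENCODE v29 transcripts on GRCh38 (hg38), 5′ to 3′ in the direction of the gene. Capitals mark the 2 bases at each end of the segment, which lie at the splice junctions. The first set holds coding exons whose skipping was listed in both libraries.
SDHA exon 7, chr5:230876-231000, plus strand: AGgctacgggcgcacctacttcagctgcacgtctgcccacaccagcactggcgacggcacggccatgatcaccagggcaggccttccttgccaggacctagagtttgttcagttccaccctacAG
UQCRC1 exon 3, chr3:48605770-48605856, minus strand: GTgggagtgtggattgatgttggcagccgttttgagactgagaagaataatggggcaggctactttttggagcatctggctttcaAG
UQCRC1 exon 10, chr3:48600482-48600567, minus strand: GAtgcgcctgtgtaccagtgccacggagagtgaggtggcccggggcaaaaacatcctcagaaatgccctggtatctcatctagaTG
ATP5F1B exon 2, chr12:56645171-56645353, minus strand: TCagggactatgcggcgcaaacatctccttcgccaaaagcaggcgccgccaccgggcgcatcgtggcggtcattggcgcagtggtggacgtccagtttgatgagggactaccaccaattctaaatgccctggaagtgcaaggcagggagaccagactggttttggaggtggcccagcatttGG
ATP5F1C exon 2, chr10:7796121-7796155, plus strand: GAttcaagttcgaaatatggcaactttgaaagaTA
ATP5F1C exon 5, chr10:7799772-7799915, plus strand: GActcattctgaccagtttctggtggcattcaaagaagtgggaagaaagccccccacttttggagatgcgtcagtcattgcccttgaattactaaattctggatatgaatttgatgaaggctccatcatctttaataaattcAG
ATP5PO exon 2, chr21:33914450-33914500, minus strand: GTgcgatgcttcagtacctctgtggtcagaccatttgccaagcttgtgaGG

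The second set holds segments between alternative splice sites listed in both libraries. The acceptor segment ends in AG, the bases that precede the downstream acceptor, and the donor segment opens with GT, the bases that follow the upstream donor.
UQCRC1 acceptor segment, chr3:48600799-48600840, minus strand: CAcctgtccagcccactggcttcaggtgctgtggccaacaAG
UQCRC1 donor segment, chr3:48609497-48609551, minus strand: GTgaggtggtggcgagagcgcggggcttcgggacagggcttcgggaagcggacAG

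The third set holds segments inside annotated coding exons that a single isoform lacked and that no GENCODE v29 transcript removes. They are shown for their ends, since ordinary introns open with GT and close with AG. The SDHA segment was listed in WT alone and the others in DCRT-KO alone.
UQCRC1, chr3:48603573-48603632, minus strand: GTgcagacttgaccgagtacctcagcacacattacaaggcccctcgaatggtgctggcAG
UQCRC1, chr3:48604304-48604357, minus strand: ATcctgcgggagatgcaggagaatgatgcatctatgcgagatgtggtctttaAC
ATP5F1B, chr12:56643492-56643569, minus strand: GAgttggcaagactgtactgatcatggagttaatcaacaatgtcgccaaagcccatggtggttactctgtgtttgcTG
ATP5PB, chr1:111454271-111454320, plus strand: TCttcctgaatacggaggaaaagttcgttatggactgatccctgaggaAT
SDHA, chr5:225950-226010, plus strand: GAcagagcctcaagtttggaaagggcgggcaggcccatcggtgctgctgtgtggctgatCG

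More events of these genes were listed in DCRT-KO than in WT, and more isoforms stood behind them. Of the 31 listed members, 19 (61.3%) had a higher number in DCRT-KO, against 52.4% of all 8028 listed genes, and 7 (22.6%) held more in WT, against 37.4% of all. The other 5 held equal numbers (16.1%, against 10.3%). The median difference, DCRT-KO minus WT, was 1 event per listed member and 1 event per listed gene overall. The summed ratio of DCRT-KO to WT events was 1.68 for the members (exact 95% interval 1.27 to 2.24) and 1.21 for all listed genes (1.19 to 1.23). The sum thus lay above that of all genes, while the median member stood where the median gene did.

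In isoforms the members' ratio was much the same, but only isoforms named in a listed event were counted, so both ratios are tied. The members' events named 172 library isoforms in DCRT-KO against 104 in WT, a ratio of 1.65, against 1.1 for all isoforms in the lists. SDHA alone gave 52 of these in DCRT-KO and 24 in WT. Events per isoform were 0.791 in DCRT-KO and 0.779 in WT for the members, and 0.789 in DCRT-KO and 0.715 in WT over all events. In single genes the numbers did not always go the same way, as in ATP5PD, with fewer events but more isoforms in DCRT-KO. Expression, depth and splicing cannot be told apart in these numbers.

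**Figure D1:**
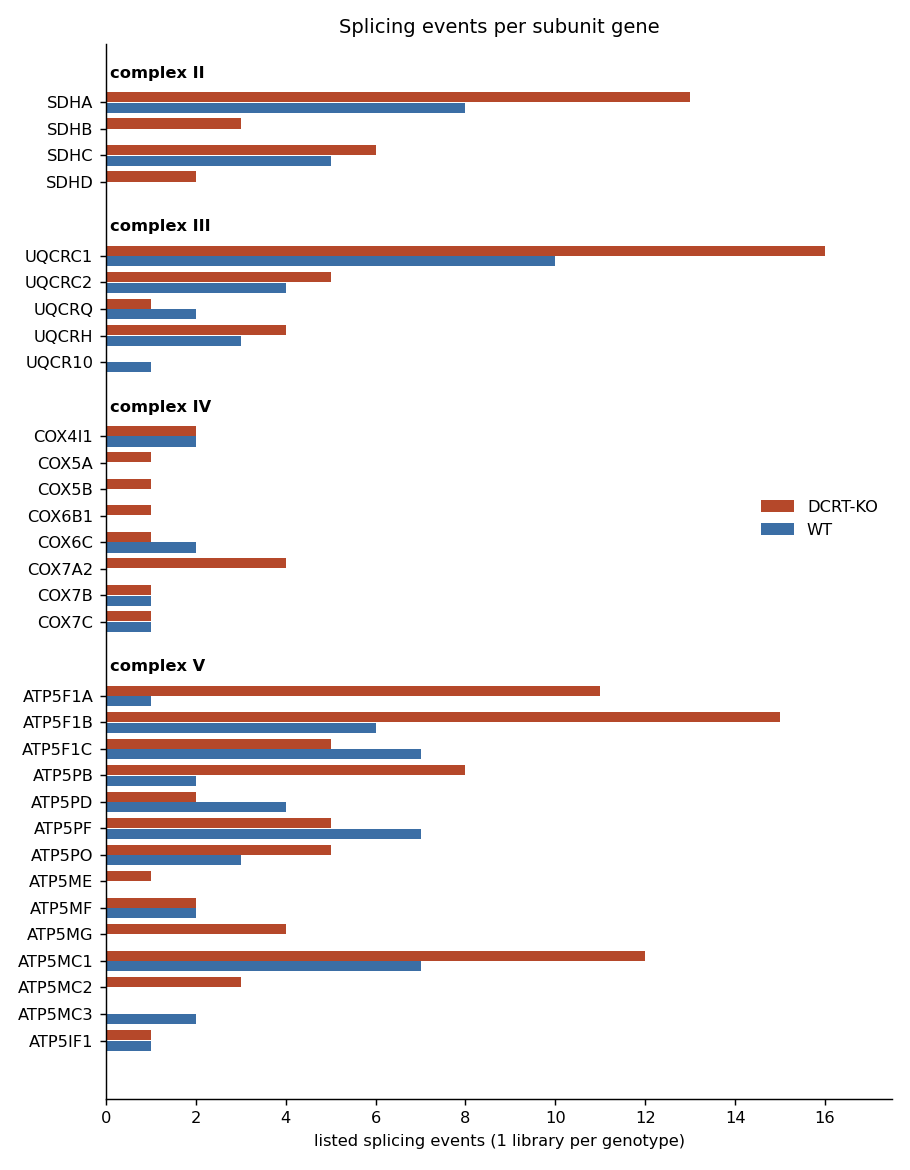
Listed splicing events (x axis, number of events) of the 31 listed subunit genes, grouped by complex, with 1 bar per library, DCRT-KO above WT. The longest bars are those of UQCRC1 (16 in DCRT-KO, 10 in WT), ATP5F1B (15 in DCRT-KO, 6 in WT) and SDHA (13 in DCRT-KO, 8 in WT). ATP5F1A shows the widest gap (11 in DCRT-KO, 1 in WT).

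A difference of at least 3 events with at least 2-fold more in 1 library, a 0 in the other library included, was reached by 7 members in DCRT-KO and by 0 in WT. These are 22.6% of listed members in DCRT-KO against a background of 21.1% of all listed genes, and 0 against 12.7% in WT. The share past this size in DCRT-KO was therefore near the background. The 7 were ATP5F1A, ATP5F1B, ATP5PB, ATP5MG and ATP5MC2 of complex V, SDHB of complex II and COX7A2 of complex IV. Events in DCRT-KO alone were listed for 9 members (29%, against 20.2% of all genes) and in WT alone for 2, UQCR10 and ATP5MC3 (6.45%, against 16.2%).

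Complex II held 24 events in DCRT-KO against 13 in WT, and 4 of its 4 genes had a higher number in DCRT-KO, beside 52.4% of all listed genes. For SDHC this rests on repeated rows. SDHA, the flavoprotein that oxidises succinate (ENSG00000073578, chr5:218241-256700), held 13 events in DCRT-KO against 8 in WT, on 52 DCRT-KO and 24 WT isoforms, the most of any member in both libraries. SDHA has near-identical pseudogene copies, so the assignment of its isoforms is uncertain. Its exon 7 of 15, 125 coding bases, was skipped by 3 of 30 DCRT-KO isoforms (10%, exact interval 2.11 to 26.5) and by 1 of 15 WT isoforms (6.67%, 0.169 to 31.9). Skipping it shifts the reading frame, and no listed annotated transcript lacks it. The intervals overlap widely, and isoform numbers are not read numbers.

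Of isoforms that keep an annotated SDHA intron of 1088 bases or remove exactly it, 2 of 25 kept it in DCRT-KO and 1 of 8 in WT. A listed inclusion of only 3 bases, chr5:234202-234204, was carried by 1 DCRT-KO isoform and lies in no annotated exon.

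SDHC and SDHD anchor the enzyme in the inner membrane and SDHB carries its iron-sulfur clusters. SDHC held 6 events in DCRT-KO against 5 in WT, and 3 of its skipped exons were the same in both. Counted once per position, SDHC held 4 events in DCRT-KO against 5 in WT, on 3 DCRT-KO and 7 WT isoforms. One of these, with 164 bases and not a multiple of 3, was skipped by 1 of 2 isoforms in DCRT-KO and by 1 of 3 in WT. SDHB held 3 events in DCRT-KO against 0 in WT, and SDHD held 2 in DCRT-KO against 0 in WT. In DCRT-KO an annotated SDHB intron of 3674 bases was kept by 1 of 3 isoforms, and an unannotated SDHB exon of 96 bases was included by 1 of 5.

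Complex III events numbered 26 in DCRT-KO against 20 in WT, the smallest ratio among the complexes at 1.30 (0.698 to 2.46). UQCRC1, a core protein (ENSG00000010256, chr3:48599002-48610976), held 16 DCRT-KO events on 24 isoforms and 10 WT events on 22 isoforms. Of its events 8 were identical in both libraries, more than in any other member.

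Its best supported event was the retention of a 134-base annotated intron, chr3:48600841-48600974. Of isoforms that keep the intron or remove exactly it, 7 of 17 kept it in DCRT-KO (41.2%, 18.4 to 67.1) and 4 of 10 in WT (40.0%, 12.2 to 73.8). The intervals are wide, and isoforms spliced to the further acceptor described next are left out of both totals. At the same intron an acceptor 42 bases downstream, which drops 42 coding bases, the length of 14 codons, was used by 1 of 11 spliced isoforms in DCRT-KO and by 2 of 8 in WT. No annotated transcript uses that acceptor. Exon 10 of 13, 86 bases, was skipped by 3 of 19 isoforms in DCRT-KO (15.8%, 3.38 to 39.6) and by 1 of 14 in WT (7.14%, 0.181 to 33.9). Exon 3, 87 bases or 29 codons, was skipped by 1 of 20 isoforms in DCRT-KO and by 1 of 18 in WT. The upstream donor of the 55-base segment was used by 11 of 13 isoforms in DCRT-KO and by 12 of 14 in WT.

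UQCRC2, the other core protein, held 5 events in DCRT-KO against 4 in WT on 5 isoforms each. The 3 shared ones were inclusions of unannotated exons of 109, 369 and 2127 bases, each on 1 isoform in both libraries. UQCRH, the hinge protein that binds cytochrome c1, held 4 events in DCRT-KO against 3 in WT, and UQCRQ, a small subunit, held 1 in DCRT-KO against 2 in WT. Their shared events were formed by annotated transcripts alone. UQCR10 held 0 events in DCRT-KO against 1 in WT. UQCRH has several processed pseudogenes and its values are uncertain.

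Complex IV, cytochrome c oxidase, held 12 events in DCRT-KO against 6 in WT over 8 listed genes, on only 7 DCRT-KO and 4 WT isoforms. COX7A2, a structural subunit, held 4 in DCRT-KO against 0 in WT, of which 2 were retention of the intron behind alternative donors, carried by 1 isoform. COX4I1, a regulatory subunit, held 2 in each library, and COX6C held 1 in DCRT-KO against 2 in WT. COX7B and COX7C held 1 in each library, at different positions, and COX5A, COX5B and COX6B1 held 1 in DCRT-KO against 0 in WT. Of the complex IV events, 1 was shared, an acceptor pair 5 bases apart in COX6C that rests on annotated transcripts. Processed pseudogenes are known for many COX genes.

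Complex V held 74 events in DCRT-KO against 42 in WT, a ratio of 1.76 (1.19 to 2.64). In the F1 head and central stalk 31 were in DCRT-KO against 14 in WT, in the peripheral stalk 20 in DCRT-KO against 16 in WT, and in the membrane part 22 in DCRT-KO against 11 in WT. ATP5F1A, the alpha subunit (ENSG00000152234, chr18:46080248-46104334), held 11 events in DCRT-KO against 1 in WT. Its events named 16 DCRT-KO and 9 WT isoforms, so the gap in events was wider than that in isoforms. The DCRT-KO events were 6 of the intron retention type, 4 acceptor pairs and 1 skipped exon, exon 10 of 13 with 108 bases. Among the 6 was a 108-base segment inside a coding exon, kept by 12 isoforms and lacked by 1. With intron retention counted for annotated introns alone, ATP5F1A held 7 events in DCRT-KO against 1 in WT. The retained annotated intron of 90 bases, kept by 2 of 12 isoforms, was its only event with at least 2 isoforms on each form.

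ATP5F1B, the catalytic beta subunit (ENSG00000110955, chr12:56638175-56646068), held 15 events in DCRT-KO against 6 in WT on 15 DCRT-KO and 8 WT isoforms, and 4 were shared. Exon 2 of 10, 183 bases or 61 codons, was skipped by 2 of 8 isoforms in DCRT-KO (25%, 3.19 to 65.1) and by 1 of 6 in WT (16.7%, 0.421 to 64.1). Exon 8, 213 bases or 71 codons, was skipped by 1 of 11 isoforms in DCRT-KO and by 1 of 5 in WT. An unannotated exon of 48 bases was included by 1 of 11 isoforms in DCRT-KO and by 1 of 6 in WT. Of isoforms that keep the annotated intron of 571 bases or remove exactly it, 1 of 8 kept it in DCRT-KO and 2 of 5 in WT. None of these pairs is separated beyond counting error.

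ATP5F1C, the gamma subunit of the central stalk, held 5 events in DCRT-KO against 7 in WT on 5 isoforms each. Its exon 9 of 10, with 37 bases at chr10:7806974-7807010, is known for being left out in heart and skeletal muscle and kept in other tissues. It holds 4 coding bases and then the stop codon TAA in the transcript ENST00000356708. The exon was kept by 3 library isoforms and skipped by 1 in DCRT-KO, and kept by 1 and skipped by 0 in WT, where the skipped form was carried by an annotated transcript alone. Exon 5, 144 bases or 48 codons, was skipped by 2 of 4 isoforms in DCRT-KO and by 2 of 4 in WT, a skipped form with no listed annotated transcript. The 35-base exon 2 was kept by 5 isoforms in DCRT-KO against 4 in WT and skipped by 0 in DCRT-KO against 1 in WT.

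In the peripheral stalk, which holds the F1 head still, ATP5PB held 8 events in DCRT-KO against 2 in WT on 10 DCRT-KO and 2 WT isoforms. Exon 3 of 7, 146 coding bases, was skipped by 2 of 7 isoforms in DCRT-KO, and 3 of the other events there paired acceptors upstream of it. None of the positions was shared, and no annotated transcript was named in the DCRT-KO events. ATP5PF held 5 events in DCRT-KO against 7 in WT, with a shared pair of exons of 66 and 75 bases, neither annotated, that were used in exclusion of each other. ATP5PO held 5 events in DCRT-KO against 3 in WT, among them the shared skipping of exon 2, 51 bases or 17 codons, by 1 isoform in both libraries. ATP5PD held 2 events in DCRT-KO against 4 in WT, with exon 2 skipped by 1 of 3 isoforms in DCRT-KO and by 1 of 2 in WT. The stalk genes thus did not share a direction.

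Among the c-ring genes, which encode an identical mature protein behind different import sequences, ATP5MC1 held 12 events in DCRT-KO against 7 in WT on 6 DCRT-KO and 5 WT isoforms. Its shared events all lay at one junction, an annotated donor and an unannotated donor 136 bases downstream, each with retention of the intron that follows. Of isoforms that keep the annotated 915-base intron or remove exactly it, 1 of 2 kept it in DCRT-KO and 2 of 3 in WT. ATP5MC2 held 3 in DCRT-KO against 0 in WT, among them the skipping of its 70-base exon 2 by 1 of 2 isoforms, and ATP5MC3 held 0 in DCRT-KO against 2 in WT. Of the other membrane subunits, ATP5MG held 4 in DCRT-KO, on 2 isoforms, against 0 in WT, and ATP5ME held 1 in DCRT-KO against 0 in WT. ATP5MF held 2 in each library, both shared, and its span also holds 13 events assigned to other genes. The span of SDHA holds 5 such events and that of ATP5PB 2. ATP5IF1, which blocks ATP hydrolysis, held 1 intron retention event in DCRT-KO against 1 in WT, at different positions. In both events 1 library isoform lacked an unannotated segment inside an annotated exon. The form that keeps the segment was carried by an annotated transcript alone.

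**Figure D2:**
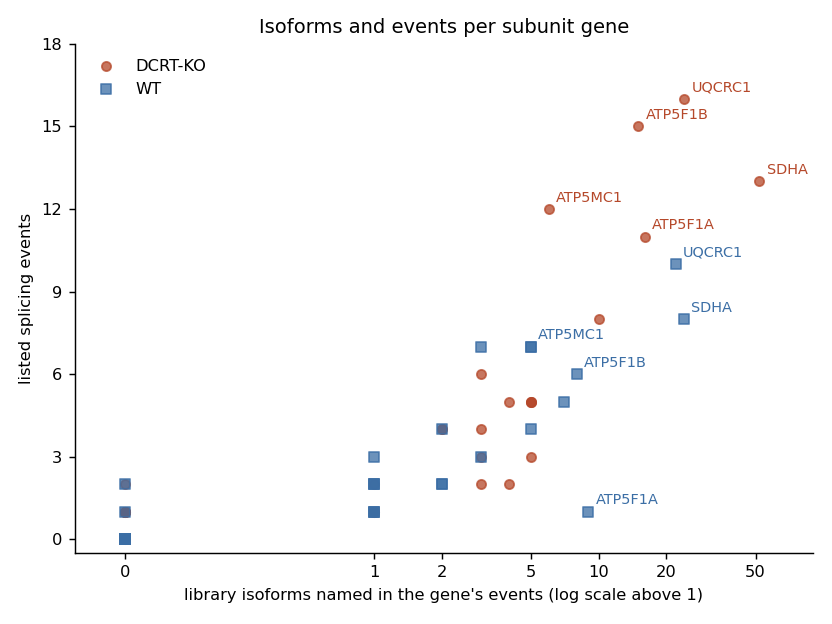
Library isoforms named in the events of a listed member (x axis, number of isoforms, linear up to 1 and logarithmic above) and its listed events (y axis, number of events), with 1 point per gene and library. SDHA had the most isoforms (52 in DCRT-KO against 24 in WT), and ATP5F1A had 9 isoforms but 1 event in WT.

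Exon skipping was the most frequent type in both libraries when each listed event was counted. It made up 58 of 136 events in DCRT-KO (42.6%, 34.2 to 51.4) and 30 of 81 in WT (37.0%, 26.6 to 48.5). Over all listed events it made up 39.7% in DCRT-KO and 34.5% in WT. Intron retention made up 36 events in DCRT-KO (26.5%, 19.3 to 34.7) and 24 events in WT (29.6%, 20 to 40.8). Over all listed events it made up 28.6% in DCRT-KO and 35.1% in WT. Alternative acceptors numbered 24 in DCRT-KO against 12 in WT, alternative donors 13 in each, and mutually exclusive exons 5 in DCRT-KO against 2 in WT. With a library isoform required on each form, exon skipping made up 37.1% in DCRT-KO and 33.9% in WT and intron retention 33.0% in DCRT-KO and 35.7% in WT, so the order turned in WT. The members' intervals for exon skipping and for intron retention overlapped between the libraries and included the values over all events.

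**Figure D3:**
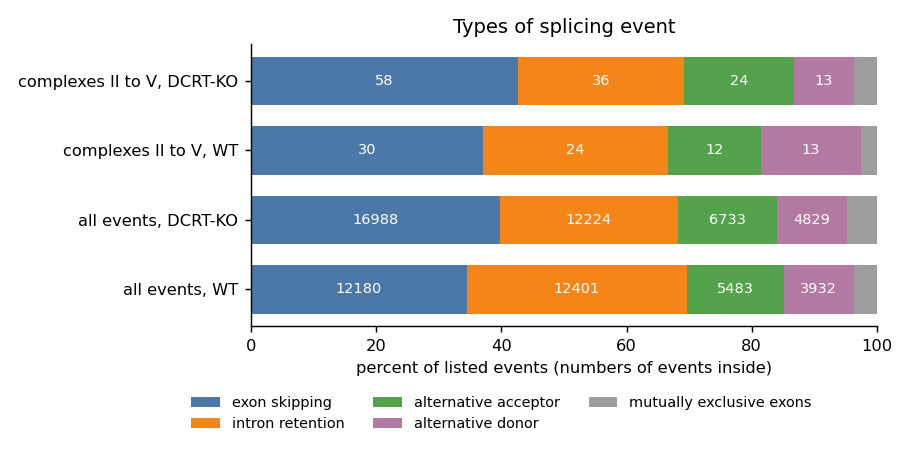
Types of event as a percent of the listed events (x axis), for complexes II to V and for all events, with DCRT-KO above WT and the number of events printed inside. Exon skipping was 42.6% of the members' events in DCRT-KO and 37.0% in WT, beside 39.7% of all events in DCRT-KO and 34.5% in WT.

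The members' 217 rows fall into 173 distinct events, and 37 of them, in 14 genes, had identical positions in both libraries. These are 28.5% of the members' distinct DCRT-KO events (20.9 to 37.0) and 46.3% of their WT events (35.0 to 57.8), against 28.0% in DCRT-KO and 33.3% in WT over all genes. Shared events were mostly skipped exons, 21 of 37, which are 38.9% of the members' skipped exons in DCRT-KO (25.9 to 53.1), while they are 70.0% in WT (50.6 to 85.3). Over all genes these shares were 34.6% in DCRT-KO and 47.2% in WT. Library isoforms carried both forms in both libraries in 25 of the 37. In 16 of these the same form was the rarer in both libraries, in 9 a library had equal numbers on its forms, and in 0 the rarer form differed. All 25 pairs of exact intervals overlapped, and in 13 the rarer form rested on 1 isoform in both libraries.

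**Figure D4:**
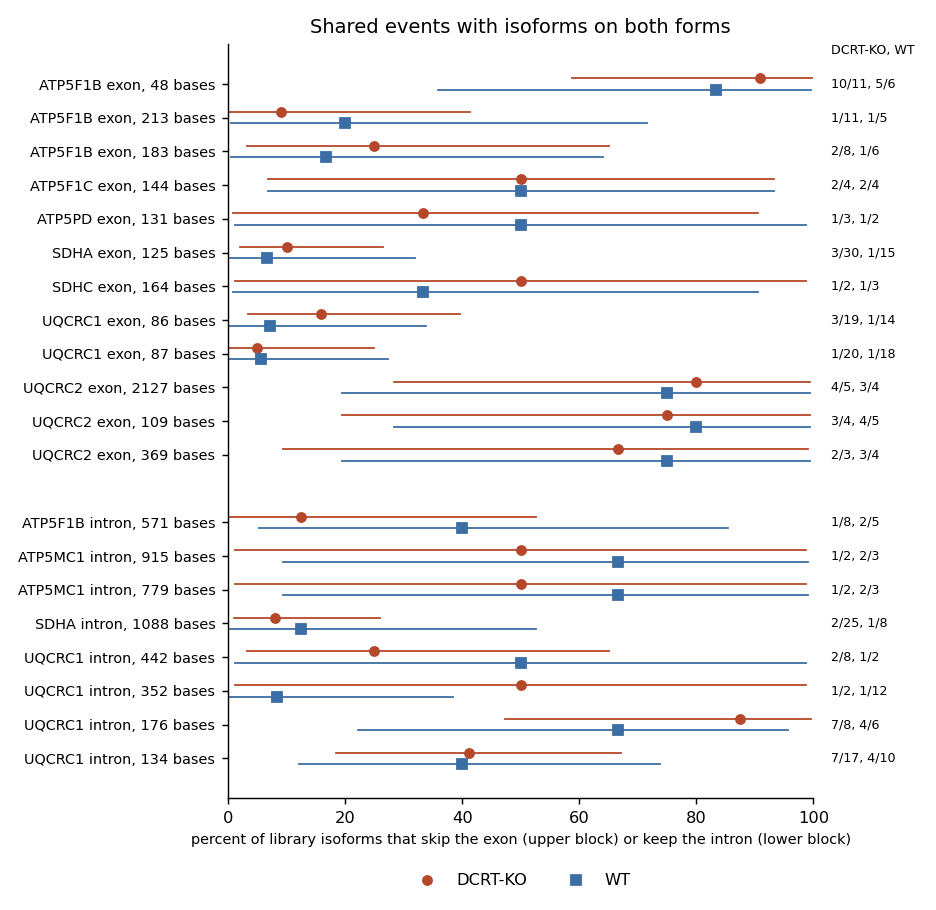
Skipped exons (upper block) and retained introns (lower block) listed at identical positions in both libraries, with library isoforms on both forms in each library. Shared events without such isoforms are not drawn. The x axis gives the percent of library isoforms that skip the exon or keep the intron, with exact 95% intervals as lines and isoform numbers at the right. The 134-base intron of UQCRC1 was kept by 41.2% in DCRT-KO and 40.0% in WT of the isoforms that keep it or remove exactly it. All intervals of a pair overlap.

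The skipped segment was an exon of GENCODE v29 in 39 of 58 skipping events in DCRT-KO (67.2%, 53.7 to 79.0) and in 23 of 30 in WT (76.7%, 57.7 to 90.1), against 75.9% in DCRT-KO and 75% in WT over all events. Counted once per position, 30 annotated exons were wholly coding and 16 of them keep the frame. The retained intron was annotated in 20 of 36 events in DCRT-KO (55.6%, 38.1 to 72.1) and in 18 of 24 in WT (75%, 53.3 to 90.2), against 48.2% in DCRT-KO and 46.9% in WT over all events. Unannotated introns numbered 20 over both libraries, and 15 lay inside an annotated exon, 6 of them with GT and AG ends. Of the 8 of these that lay wholly in coding sequence, 1 had GT and AG ends, the 60-base UQCRC1 segment shown above. The others opened with bases such as AT, GA and TC, as the printed sequences of UQCRC1, ATP5F1B and ATP5PB show.

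Support for the members' events was thin. At least 2 library isoforms on each form were named in 9 of 136 events in DCRT-KO (6.62%) and in 6 of 81 in WT (7.41%), against 13.0% in DCRT-KO and 11.3% in WT over all events. Annotated transcripts alone formed 14 events in DCRT-KO (10.3%, 5.74 to 16.7) and 8 events in WT (9.88%, 4.36 to 18.5), while over all they formed 3.44% in DCRT-KO and 3.41% in WT. Such events say that a gene was listed and not which form the cells made.

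Genes that work with these complexes were counted in the same way. The difference between DCRT-KO and WT had a median of 0.5 events in listed assembly factors, 2.5 in citric acid cycle genes and 0 in complex I, beside 1 in all listed genes. Of all listed genes 52.4% were higher in DCRT-KO and 37.4% in WT. The summed ratio was 2.07 in assembly factors (1.5 to 2.87), 2.18 in citric acid cycle genes (1.58 to 3.03) and 1.27 in complex I (0.918 to 1.76), beside 1.68 in complexes II to V. Of 41 assembly factors of complexes II to V, 28 were listed, 14 higher in DCRT-KO and 9 higher in WT, with 122 DCRT-KO and 59 WT events. BCS1L, which inserts the Rieske protein into complex III, held 36 events in DCRT-KO against 5 in WT, and LRPPRC, which stabilises mitochondrial mRNAs, held 14 in DCRT-KO against 0 in WT. All 14 citric acid cycle genes were listed, 10 higher in DCRT-KO and 2 higher in WT, with 124 DCRT-KO and 57 WT events. IDH3B, a subunit of isocitrate dehydrogenase, held 35 events in DCRT-KO against 10 in WT. The differences of IDH3A, of the same enzyme, and of the citrate synthase gene CS were each 10. IDH3A held 13 events in DCRT-KO against 3 in WT, and CS held 22 in DCRT-KO against 12 in WT. Of 37 complex I subunits 29 were listed, 13 higher in DCRT-KO and 10 higher in WT, with 90 DCRT-KO and 71 WT events. NDUFV1 held 27 events in DCRT-KO against 11 in WT, NDUFS3 held 7 in DCRT-KO against 2 in WT, and NDUFA9 held 2 in DCRT-KO against 7 in WT. The intervals of these ratios all overlapped that of complexes II to V, and no difference between the lists was tested.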

How the data were processed

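RNA of 2 AC16 libraries, 1 DCRT-KO and 1 WT, grouped by the genotype labels, was sequenced. The series' design text describes PacBio long reads, while the labels' protocols describe Illumina libraries. The sources used here do not settle this. The submitters' processing notes name minimap2 as a tool and hg38 as the build. For the programs that built isoforms and called events, their filters and the annotation release, nothing is given in the sources used here. The authors' deposited tables hold 1 event per row, per the file headers with positions, gene identifier and transcripts of each form. They hold no read count.

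Each row was counted as 1 event. Shares of isoforms compare the 2 forms of an event, so isoforms with another form of the same segment are left out. Members were matched by gene symbol to gene identifiers (41 of 41). Of 78 annotated transcripts named in their events, 77 are in GENCODE v29, on the same assembly, which gave exons, coding sequence and bases. Positions are 1-based. Intervals are exact (Clopper-Pearson for shares and for the share of DCRT-KO events behind a ratio), at 95%, from scipy 1.17.1 in Python 3.11.15. With 1 library per genotype there was no test. The counting was checked on simulated tables. The genes described in full are the 10 with most events, those past the fold, and those with a shared event or with at least 2 isoforms on each form. From each further list the 2 genes with the largest difference, ties included, are named. Members and lists were chosen with earlier results of these data known. A further list of other subunits (17 genes, 6 listed) held 15 events in DCRT-KO against 8 in WT. Of these, MT-CO1 held 9 in DCRT-KO against 4 in WT, ATP5MJ 3 in DCRT-KO against 0 in WT, and MT-CYB 0 in DCRT-KO against 3 in WT. Some events of SDHA and SDHC are not reported here.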

Additional observations from a re-analysis of the deposited data

How the results depend on the processing

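Of 79 recomputed summary values, 65 stayed within the counting interval or within 1.5 times the main count. Some of these could not move. Shared events were already counted once per position, and UQCRC1, left out in an alternative, was not past the fold. The ratio of DCRT-KO to WT events, 1.68, ranged from 1.39 to 1.73 over the alternatives run. Where each form had to be carried by at least 2 library isoforms, members with more events numbered 3 in DCRT-KO against 1 in WT (19 in DCRT-KO and 7 in WT as reported), members past the fold 0 in DCRT-KO, shared events 2 (37), exon skipping 16.7% in WT, and intron retention 44.4% in DCRT-KO and 50% in WT, on 9 DCRT-KO and 6 WT events. With at least 1 library isoform on each form, more events in DCRT-KO were held by 12 members, of which 4 were past the fold (7). A difference of at least 5 events left 3 past the fold in DCRT-KO. The shares of all listed genes under any of the alternatives are not given here, so these member counts have no background. Of the 20 members listed in both libraries, 10 held more in DCRT-KO and 5 more in WT, and 3 were past the fold in DCRT-KO. The higher share in DCRT-KO among all listed members thus rests partly on members with 0 events in WT. With WT numbers scaled to the length of the DCRT-KO list, 13 members held more in WT, since members with equal numbers then count as higher in WT. SDHC, with 6 events in DCRT-KO against 5 in WT before scaling, also changed direction. With this scaling 18 members still held more in DCRT-KO, and 7 were past the fold there. With annotated introns alone, intron retention was 16.7% of DCRT-KO events. With at least 2 isoforms on each form, the differences of the 7 members past the fold were 2 events in ATP5F1B, 1 in ATP5F1A and 0 in ATP5PB, COX7A2, ATP5MG, SDHB and ATP5MC2. No paired analysis was possible because each genotype has 1 library. The lists carry no depth, so an event missing from a library was not detected there and is not shown to be absent.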

Other observations

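Of the genes of the mitochondrial genome, which have no introns, 3 were listed with splicing events, each with 1 annotated exon. MT-CO2, MT-CO3, MT-ATP6 and MT-ATP8 were at 0 events in both libraries. MT-CO1, the catalytic subunit of complex IV, held 9 events in DCRT-KO against 4 in WT on 13 DCRT-KO and 7 WT isoforms, most of them donor or acceptor pairs. MT-ND4, a complex I subunit, held 10 events of the intron retention type in DCRT-KO and 0 events in WT. MT-CYB, the complex III cytochrome b gene, held 0 in DCRT-KO against 3 in WT. No position was shared between the libraries in these 3 genes. They were chosen after their values were seen, and how the events arose was not tested.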
